A study of Homo sapiens with 12 samples.

Results

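The MHC class I presentation genes described here are 9 genes, taken by symbol from the 45478 rows of the count table: the heavy chains HLA-B, HLA-C and HLA-E, the light chain B2M, the peptide transporter TAP1 and TAP2, the loading factor TAPBP, and the immunoproteasome subunits PSMB8 and PSMB9. All 9 were found once and passed the filter on low counts. They were followed in polyA RNA of 4 groups of cultured clear cell renal cell carcinoma (ccRCC) cells with 3 replicate libraries each. 786-O and A498, named without a further word, are the parental ccRCC cell lines. Resistant 786-O cells were selected with 4 μM sunitinib and resistant A498 cells with 2 μM, over at least 4 months or more than 20 passages, and sunitinib is a tyrosine kinase inhibitor that blocks VEGF and PDGF receptors. All cells grew in high-glucose medium with serum, and sunitinib was in the medium during selection; whether it was present at RNA harvest is not stated. The labels give the treatment of every library as none, and each resistant line comes from a single named selection.

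MHC class I molecules show fragments of intracellular proteins to CD8+ T cells. Proteasomes cut proteins into peptides, and PSMB8 and PSMB9 replace constitutive catalytic subunits in the immunoproteasome, the form made in immune cells and after interferon exposure. TAP1 and TAP2 together pump the peptides into the endoplasmic reticulum, where TAPBP (tapasin) holds empty class I molecules next to the transporter. A heavy chain, B2M and a peptide then travel to the cell surface. Interferons raise most of these genes through STAT and IRF factors, and NLRC5 is a transactivator of class I promoters.

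Of the 9 genes, 8 lie in the MHC on chromosome 6 of GRCh38: HLA-E (30489509 to 30494194), HLA-C (31268749 to 31272130), HLA-B (31353872 to 31367067), TAP2 (32821833 to 32838739), PSMB8 (32840717 to 32844679), PSMB9 (32844136 to 32859851), TAP1 (32845209 to 32853816) and TAPBP (33299694 to 33314284). B2M is on chromosome 15 (44711358 to 44718851). RefSeq promoter windows, 250 bases before to 50 after a transcription start, were at hand for 8 of the 9 genes, and HLA-E had none. The stretches below are shown because each carries interferon or NF-kappaB type motifs, although no motif was found in all members. They are RefSeq sequence on GRCh38.p14, written 5′ to 3′ on the gene's strand, with matches in capitals: the interferon-stimulated response element (ISRE, here GAAA, any 2 bases and GAAA), a shorter interferon consensus (GAANNGAAA), the STAT element GAS (TTCNNNGAA), the NF-kappaB consensus and an X2-like box (TGACGC). Both strands were searched, so that TTTC, any 2 bases and TTTC is an ISRE as well.
HLA-B, chr6:31357220-31357369, strand minus: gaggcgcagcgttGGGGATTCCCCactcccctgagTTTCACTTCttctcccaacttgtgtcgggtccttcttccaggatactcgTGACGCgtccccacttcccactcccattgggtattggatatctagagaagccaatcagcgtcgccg
HLA-C, chr6:31272133-31272282, strand minus: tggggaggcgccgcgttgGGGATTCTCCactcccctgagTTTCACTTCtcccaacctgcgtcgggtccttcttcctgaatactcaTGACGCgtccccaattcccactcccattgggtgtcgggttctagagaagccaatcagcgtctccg
B2M, chr15:44711357-44711476, strand plus: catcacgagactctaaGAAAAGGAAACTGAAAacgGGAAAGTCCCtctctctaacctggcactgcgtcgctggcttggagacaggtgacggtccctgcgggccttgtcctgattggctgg
TAP1, chr6:32853755-32853854, strand minus: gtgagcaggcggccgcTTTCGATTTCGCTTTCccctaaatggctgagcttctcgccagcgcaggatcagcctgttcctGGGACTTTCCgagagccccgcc
TAP2, chr6:32838750-32838819, strand minus: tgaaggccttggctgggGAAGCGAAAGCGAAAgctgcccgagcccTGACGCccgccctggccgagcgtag
TAPBP, chr6:33314079-33314148, strand minus: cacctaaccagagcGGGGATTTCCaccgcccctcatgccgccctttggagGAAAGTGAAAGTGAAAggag
PSMB8, chr6:32844037-32844127, strand minus: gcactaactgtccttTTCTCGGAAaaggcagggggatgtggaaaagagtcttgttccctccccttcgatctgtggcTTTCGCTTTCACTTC
In the HLA-B and HLA-C windows, the capitals are from left to right an NF-kappaB consensus, the interferon consensus and the X2-like box. In B2M, a run of overlapping ISRE matches is followed by NF-kappaB, and in TAP1 the same order is seen. TAP2 has an interferon consensus that overlaps an ISRE and then an X2-like box, TAPBP has NF-kappaB and then overlapping ISRE matches, and PSMB8 has a GAS element and an ISRE that overlaps the interferon consensus at its downstream start. The ISRE was found in 5 of the 8 genes with a window (B2M, TAP1, TAP2, TAPBP and PSMB8) and in 3.57% of all 35116 promoter windows. The NF-kappaB consensus was found in 5 of 8 (HLA-B, HLA-C, B2M, TAP1 and TAPBP) and in 11.3% of all windows. For the interferon consensus the counts were 4 of 8 genes and 7.66%, for the X2-like box 3 of 8 and 9.14%, for GAS 2 of 8 and 7.66%, and for the CCAAT box 5 of 8 and 34.6%. A gene counted with a match in any of its windows, 10 in all for the 8 genes, whereas the percentages are shares of single windows. The GAS match of TAP1 lies in a further window of TAP1 that is not shown. The PSMB9 window held a CCAAT box and none of the other motifs. PSMB9 and TAP1 are read in opposite directions from starts that lie 488 bases apart, and the ISRE matches of TAP1 lie 354 and 360 bases before the start of PSMB9. These matches describe the letters of the windows and were not tested as binding sites.

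Total counts per library ranged from 20042519 to 47972092. No batch label is shared by any pair of groups, and batch and group cannot be told apart. The libraries labelled resistant A498 were nearer to 786-O than to A498: 62 genes that A498 expressed and 786-O did not (up to 3 counts) stood at a median of 0.362% of their A498 level in resistant A498, and 33 genes with the opposite pattern stood at 94.6% of their 786-O level. In resistant 786-O these medians were 0.238% and 96.4%. Across genes, the median correlation of log2 CPM of the resistant A498 libraries was 0.989 with resistant 786-O and 0.918 with A498. The identity of the libraries labelled resistant A498 is therefore in doubt, and in their comparison with A498 a change with resistance and a difference between the lines cannot be told apart. That comparison is given beside one with 786-O, which shares its control libraries with resistant 786-O against 786-O. Replicate 2 of resistant 786-O stood apart from its group, with an SD of its log2 difference from the other resistant 786-O libraries of 0.28 across genes, against at most 0.17 for the others. Of 8 markers of ccRCC, PAX8, KRT8, KRT18, VIM and EPAS1 were above 100 CPM (the count scaled to the normalized library size) in every group, whereas CA9 had a mean of 1.3 CPM in A498 and under 0.1 CPM in the other groups. PAX2 had group means of 15.0 to 26.4 CPM. LRP2 had 0 counts in every parental library and 3 to 15 counts in the resistant libraries. Of 24 leukocyte markers, 22 were under 1 CPM in every group, PTPRC among them, and the summed level of the list was between 1.34 and 3.26 CPM in any library. Of 10 fibroblast and endothelial markers, 7 were under 1 CPM in every group, with list sums of 6.8 to 7.26 CPM in 786-O, 11.3 to 11.9 in resistant 786-O, 51.1 to 62.7 in A498 and 25.3 to 27.4 in resistant A498.

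Transcripts of the class I pathway were more abundant in sunitinib-resistant 786-O cells than in parental 786-O cells. Together the 9 genes took 0.215% ± 0.003 of all counts in 786-O (mean ± SD, n = 3) and 0.81% ± 0.025 in resistant 786-O. All 9 were called higher (edgeR's quasi-likelihood test, adjusted p under 0.05), where 35.0% of the 19929 genes tested were called higher, although TAP2 turned to -0.08 and lost its call once trends with GC content and length were removed from the libraries. The rise exceeded 2-fold for 8 of the 9, against 16.2% of all genes, and for 5 of the 9 with these trends removed. HLA-B had the largest change with and without the trends (2.37 and 2.18). HLA-C came next without their removal (2.08), but with it stood at 1.53, under B2M (1.82) and TAP1 (1.66). It was then also under PSMB9, which was at 1.57 or more under every alternative. The median log2 fold change of the 9 was 1.65, against 0.03 over all genes. Whether more cells of a culture or more RNA per cell carried a change cannot be told apart in such bulk samples.

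**Figure D1:**
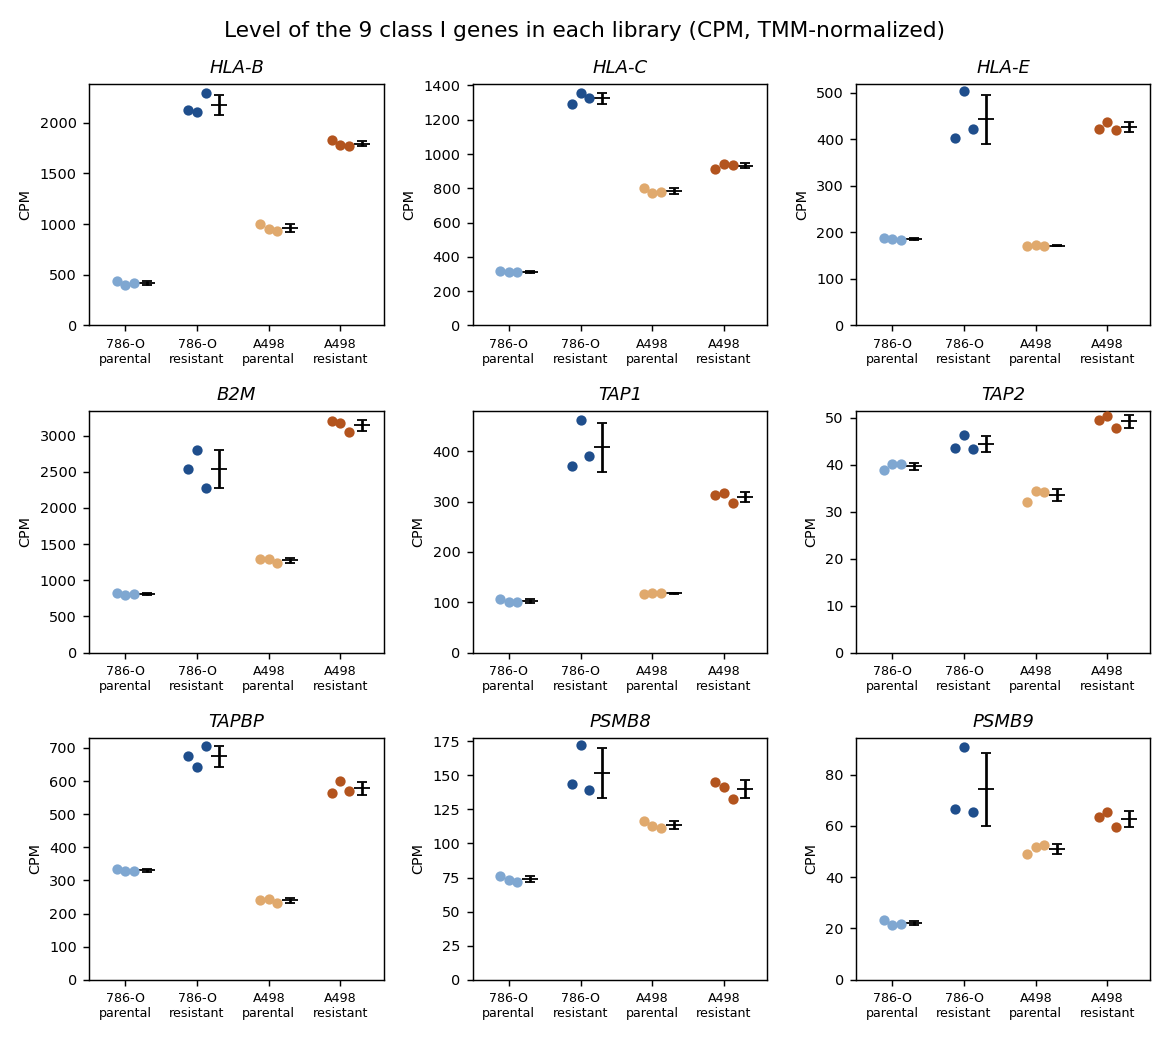
Level of each of the 9 genes in CPM (vertical axes, from 0) in every library of the parental and resistant groups of both lines. Points are libraries, and bars give the mean and SD of 3. The resistant libraries lie above those of their parental lines for all 9 genes, by little for TAP2 and, against A498, for PSMB8, PSMB9 and HLA-C.

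HLA-B, a classical heavy chain, was at 438, 404 and 421 CPM in the 786-O libraries and at 2127, 2105 and 2291 CPM in those of resistant 786-O. Every resistant 786-O library was thus above every 786-O library, with a log2 fold change of 2.37 ± 0.05 (SE, the standard error, edgeR, adjusted p = 3.1e-14), which is 5.16-fold. HLA-C, the classical heavy chain that is also the main ligand of killer-cell immunoglobulin-like receptors, rose from 321, 311 and 311 CPM to 1291, 1356 and 1329 CPM. Its log2 fold change was 2.08 (SE 0.04, adjusted p = 1.3e-14, edgeR) and 1.53 with the GC and length trend removed. HLA-E, the nonclassical chain read by the NKG2A receptor of NK cells, was at 187, 186 and 185 CPM in 786-O and at 403, 503 and 423 CPM in resistant 786-O, of which the highest was replicate 2. The change of HLA-E was smaller than that of the classical chains, at 1.25 on the log2 scale (SE 0.06), and it was 0.98 with the trend removed. B2M, the invariant light chain of all class I molecules, rose from 825, 793 and 808 CPM to 2534, 2807 and 2276 CPM, a log2 fold change of 1.65 ± 0.06 (SE, edgeR, adjusted p = 1e-11). The coding sequences of HLA-B and HLA-C are 92.6% identical, and those of HLA-E and HLA-B 86.9%, in the reference transcripts. Of the 50-base windows of the transcripts, 2.56% for HLA-B, 6.76% for HLA-C and 4.76% for HLA-E recur in another HLA gene. For 100-base windows the shares are 0%, 0.277% and 0.612%, and trimmed reads could be as short as 50 bases. These shares rest on reference alleles, while the alleles of the cell lines were not determined here. A pseudogene annotated on the opposite strand of HLA-B took counts that were between 10.6% and 15.3% of those of HLA-B in every library.

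The change was large for 1 subunit of the peptide transporter and small for the other. TAP1 increased from 106, 101 and 100 CPM in 786-O to 370, 462 and 391 CPM in resistant 786-O, with a log2 fold change of 1.99 ± 0.07 (SE, edgeR, adjusted p = 4.1e-12). TAP2 was at 38.8, 40.2 and 40.1 CPM in 786-O and at 43.5, 46.4 and 43.3 CPM in resistant 786-O. The TAP2 libraries did not overlap, but the change was 0.16 on the log2 scale (95% confidence interval 0.06 to 0.27, adjusted p = 0.0097, edgeR), and it was not called without the filter on low counts (0.16, adjusted p = 0.074, edgeR). The ratio of TAP1 to TAP2, in CPM per kilobase of the reference transcript, was between 5.25 and 5.76 in the 786-O libraries and between 17.9 and 20.9 in those of resistant 786-O. TAPBP, encoding tapasin, rose from 334, 330 and 327 CPM to 675, 643 and 706 CPM. The log2 fold change of TAPBP was 1.03 (SE 0.05) and fell to 0.67 with the GC and length trend removed. All 9 genes had groups that did not overlap in the direction of resistant 786-O, as did 34.5% of all genes tested.

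Both immunoproteasome subunits rose in resistant 786-O. PSMB8, the inducible chymotrypsin-like subunit that replaces PSMB5, was at 76.1, 73.1 and 72.1 CPM in 786-O and at 143, 172 and 139 CPM in resistant 786-O, a log2 fold change of 1.04 ± 0.07 (SE, edgeR, adjusted p = 5.2e-09). PSMB9, which replaces PSMB6, was at 23.1, 21.5 and 21.8 CPM and at 66.6, 90.8 and 65.3 CPM, a log2 fold change of 1.74 (SE 0.10). In both, replicate 2 was the highest resistant 786-O library, and without it the log2 fold change of PSMB9 was 1.57. PSMB5 and PSMB6 were lower in resistant 786-O, with log2 fold changes of -0.46 and -0.40, and PSMB7, the third constitutive catalytic subunit, was at -0.11 and not called. Within each library, the ratio of PSMB8 to PSMB5, in CPM per kilobase, was 0.454 ± 0.004 in 786-O (mean ± SD, n = 3) and 1.28 ± 0.06 in resistant 786-O. For PSMB9 to PSMB6 the ratio was 0.116 ± 0.001 and 0.514 ± 0.111. The third exchange did not show this pattern, as the ratio of PSMB10 to PSMB7 was between 0.0457 and 0.0475 in 786-O and between 0.0444 and 0.0603 in resistant 786-O, with overlapping libraries. The level of PSMB10 itself was 16 ± 0.06 CPM in 786-O, against 16.5 ± 3.69 CPM in resistant 786-O (log2 fold change 0.05, adjusted p = 0.71, edgeR). PSMB8-AS1, a noncoding RNA on the opposite strand, shares 17.3% of the exon bases of PSMB8 and 14.2% of those of TAP1, and its counts were between 32.1% and 70.4% of those of PSMB8. The methods of the study name a kit that marks strand and a strand-specific counting setting, but the setting is not the one commonly used with this kit, and their match was not tested here. If strand was not resolved, reads of HLA-B, PSMB8 and TAP1 and of the genes opposite them cannot be told apart where they overlap.

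**Figure D2:**
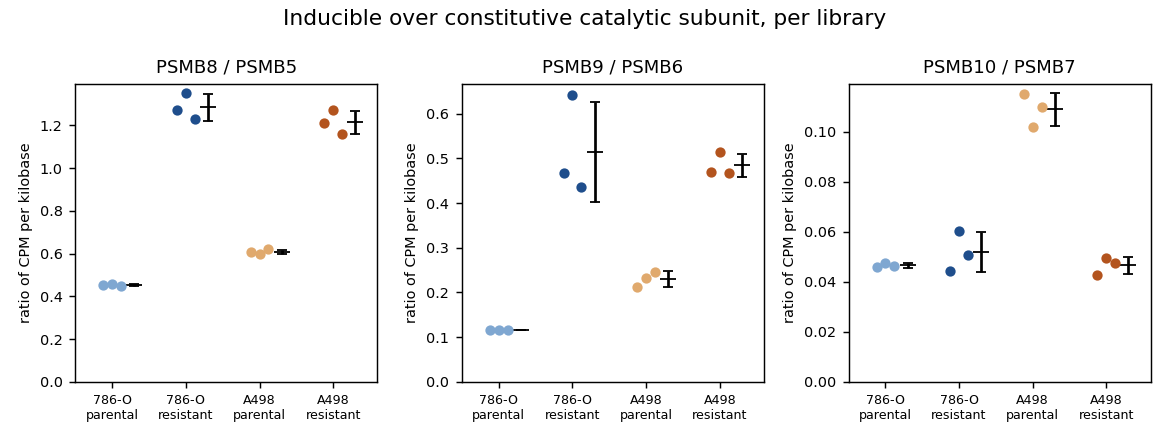
Ratio of each inducible catalytic subunit to the constitutive subunit it replaces, in CPM per kilobase (vertical axes, from 0), for every library of the 4 groups, with mean and SD of 3. The ratios of PSMB8 to PSMB5 and PSMB9 to PSMB6 are above the parental libraries in both resistant groups. The ratio of PSMB10 to PSMB7 is highest in A498. In resistant A498 over A498, PSMB8 and PSMB9 each changed by 0.30 on the log2 scale, PSMB5 by -0.69 and PSMB6 by -0.77.

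In the libraries labelled resistant A498, all 9 genes were again called higher than in 786-O, against 31.6% of all genes, with the exception of TAP2 when the GC and length trend was removed (0.03, not called). The rise exceeded 2-fold for 6 of the 9, against 13.7% of all genes, and the groups did not overlap for any of the 9, which in this direction was so for 36.2% of all genes. The median log2 fold change of the 9 was 1.50, against 0.00 over all genes. HLA-B was at 1826, 1782 and 1774 CPM in resistant A498, a log2 fold change of 2.09 over 786-O (SE 0.05). HLA-C was at 915, 942 and 936 CPM (1.57 over 786-O), and HLA-E was at 421, 438 and 420 CPM (1.20). B2M, at 3205, 3170 and 3055 CPM, was the member with the second largest change (1.96, SE 0.06). TAP1 was at 313, 318 and 297 CPM, which is 1.59 over 786-O, and TAP2 was at 49.4, 50.4 and 47.8 CPM, which is 0.31 over it. TAPBP was at 565, 601 and 571 CPM, PSMB8 at 145, 142 and 133 CPM and PSMB9 at 63.6, 65.5 and 59.4 CPM. These correspond to log2 fold changes over 786-O of 0.81, 0.92 and 1.50.

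Against A498, which had higher levels of several members to begin with, the same libraries showed smaller changes than against 786-O for HLA-B, HLA-C, B2M, TAP1, PSMB8 and PSMB9, and larger ones for HLA-E, TAP2 and TAPBP. All 9 were called higher, against 36.3% of all genes, and the libraries of the groups did not overlap for any of the 9, which was so in this direction for 39.4% of all genes. Of the 9, 4 exceeded 2-fold, against 14.3% of all genes, namely HLA-E, B2M, TAP1 and TAPBP. With the GC and length trend removed 5 of the 9 did, and HLA-B was then at 1.085. HLA-E was at 171, 173 and 171 CPM in A498 and its log2 fold change was 1.31 (SE 0.06, adjusted p = 8.8e-11, edgeR). B2M was at 1293, 1292 and 1241 CPM in A498 (1.30 on the log2 scale). TAPBP was at 242, 245 and 232 CPM (1.27) and TAP1 at 117, 119 and 118 CPM (1.39). With the GC and length trend removed, TAP1 instead changed more against A498 (1.72) than against 786-O (1.45, with the replicate block as well). HLA-B was at 1001, 950 and 934 CPM in A498, a log2 fold change of 0.90 (SE 0.05). TAP2 was at 32.1, 34.3 and 34.3 CPM in A498 and rose by 0.55 on the log2 scale in resistant A498, the largest change of TAP2 in any of the 3 comparisons with a parental line. HLA-C, at 802, 771 and 776 CPM in A498, changed by 0.25 (SE 0.04), or by 0.75 with the GC and length trend removed. PSMB8, at 117, 113 and 112 CPM, changed by 0.30, or by 0.59 with the trend removed. PSMB9, at 48.9, 51.6 and 52.4 CPM, changed by 0.30 (adjusted p = 0.014, edgeR). That call was lost without replicate 1 of A498 (0.27, adjusted p = 0.052, edgeR). The constitutive subunits PSMB5 (-0.69) and PSMB6 (-0.77) were lower in resistant A498 than in A498, and PSMB7 was higher (0.56). Against A498, the ratios of PSMB8 to PSMB5 and of PSMB9 to PSMB6 thus changed in both of their parts.

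**Figure D3:**
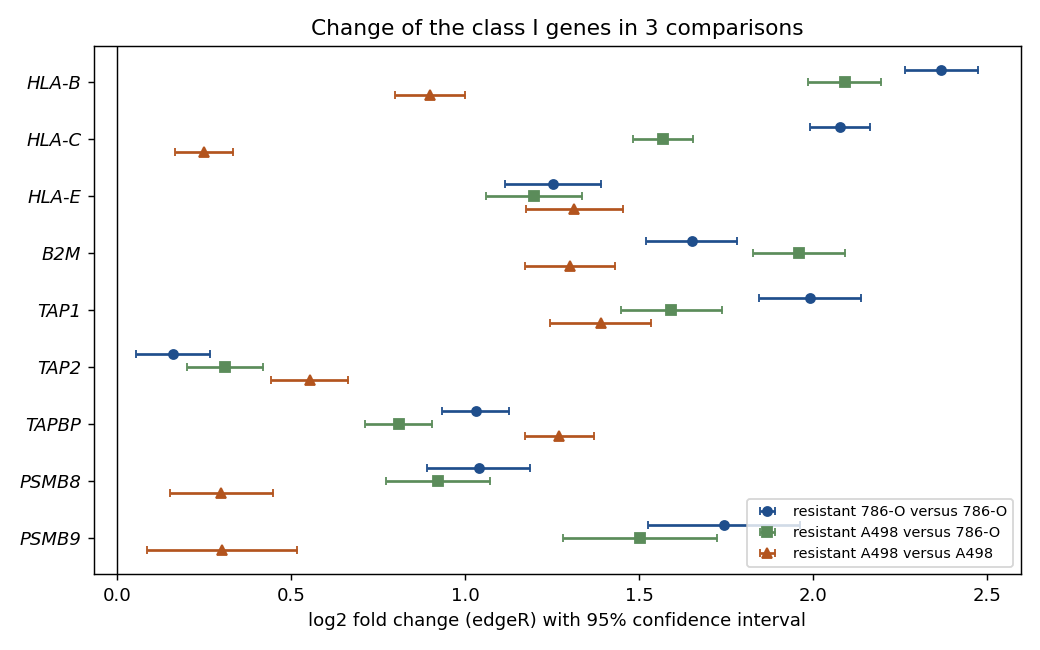
Log2 fold change of each of the 9 genes (horizontal axis, edgeR, with 95% confidence interval) for resistant 786-O versus 786-O, resistant A498 versus 786-O and resistant A498 versus A498. HLA-B and HLA-C lie above 1.5 against 786-O and below 1 against A498, and TAP2 is the smallest change in both comparisons with 786-O.

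The parental lines differed in 8 of the 9 members, against 74.2% of all genes. HLA-B, HLA-C and PSMB9 were less abundant in 786-O than in A498, with log2 fold changes of -1.19, -1.32 and -1.20. B2M and PSMB8 were at -0.66 and -0.62. TAP1 was at -0.20, a call that was lost without replicate 2 (-0.18) or 3 (-0.18) of 786-O. TAPBP and TAP2 were higher in 786-O, by 0.46 and 0.24, and HLA-E was not called (0.12, adjusted p = 0.12, edgeR). With the GC and length trend removed, HLA-C moved to -0.64, PSMB8 to -0.26, TAPBP to 0.94 and TAP2 to 0.43, TAP1 turned to 0.27, and HLA-E was at 0.55 and called. HLA-E was also called without the filter on low counts (0.17), in a fit of the parental groups alone (0.07) and without replicate 2 of resistant 786-O (0.12). Since the HLA chains are polymorphic and reads were aligned to a single reference, expression and the fit of a line's alleles to that reference cannot be told apart where lines are compared. The 2 resistant groups differed less from each other: 6 of the 9 members were called between resistant A498 and resistant 786-O, against 46.1% of all genes. HLA-C (-0.51), TAP1 (-0.40), HLA-B (-0.28) and TAPBP (-0.22) were lower in resistant A498, while B2M (0.31) and TAP2 (0.15) were higher, and HLA-E, PSMB8 and PSMB9 were not called. With the trend removed, HLA-C was at -0.14 and TAP1 at -0.21, and the calls of B2M, TAP2 and TAPBP were lost, at 0.11, 0.11 and -0.06. The call of TAP2 was also lost without replicate 1 (0.15) or 2 (0.14) of resistant A498 and without replicate 1 (0.14) or 3 (0.14) of resistant 786-O. In order of level, HLA-B, HLA-C, PSMB8 and PSMB9 ran from 786-O through A498 and resistant A498 to resistant 786-O, and in this order the neighbours resistant A498 and resistant 786-O were not distinguished for PSMB8 and PSMB9. The difference for PSMB9 (-0.24, adjusted p = 0.057, edgeR) was called without the filter (-0.25), with at least 10 counts in every library (-0.25) and without replicate 1 (-0.31) or 3 (-0.32) of resistant 786-O, and was -0.07 and not called without its replicate 2. B2M ran from 786-O through A498 and resistant 786-O to resistant A498. For HLA-E the 2 parental groups came first, not distinguished from each other, followed by the 2 resistant groups, which were not distinguished either, except with the replicate block and the trend removed together (0.14, adjusted p = 0.042, edgeR). TAP1 ran from 786-O through A498 and resistant A498 to resistant 786-O, TAPBP from A498 through 786-O and resistant A498 to resistant 786-O, and TAP2 from A498 through 786-O and resistant 786-O to resistant A498.

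The labelled change with resistance was also compared between the lines, as the log2 fold change in resistant A498 over A498 minus that in resistant 786-O over 786-O. This difference includes that of 786-O over A498, which was -1.32 for HLA-C, -1.19 for HLA-B and -1.20 for PSMB9. With the identity of the resistant A498 libraries in doubt, a change with resistance and a difference between the lines cannot be told apart in it. The labelled change differed for 8 of the 9 members, against 68.3% of all genes. HLA-C had the widest gap (-1.83, SE 0.06), followed by HLA-B (-1.47) and PSMB9 (-1.44). With the trend removed HLA-C was at -0.78, nearer to 0 than PSMB9 (-1.29) and HLA-B (-1.10). HLA-E did not pass the test (0.06, 95% confidence interval -0.13 to 0.25), but its difference was 0.17 without replicate 2 of resistant 786-O and 0.69 with the trend removed, both called.

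The balance between heavy and light chains also differed between groups. The summed level of HLA-B, HLA-C and HLA-E over that of B2M, in CPM per kilobase, was 0.642 ± 0.005 in 786-O (mean ± SD, n = 3), 0.917 ± 0.114 in resistant 786-O, 0.888 ± 0.02 in A498 and 0.582 ± 0.011 in resistant A498. The ratio was thus higher in every resistant 786-O library than in any of 786-O, and lower in every resistant A498 library than in any other. HLA-B exceeded HLA-C in all libraries, with ratios of 1.30 to 1.37 in 786-O, 1.56 to 1.73 in resistant 786-O, 1.21 to 1.25 in A498 and 1.90 to 2.00 in resistant A498. On the same per-kilobase scale B2M was the most abundant member in each group (857 in 786-O, 2692 in resistant 786-O, 1352 in A498 and 3334 in resistant A498), and TAP2 the least abundant (7.03, 7.86, 5.95 and 8.72). TAPBP exceeded TAP2 by 13.6-fold in 786-O, 24.9-fold in resistant 786-O, 11.7-fold in A498 and 19.2-fold in resistant A498. On its own strand, TAP2 shares 19.5% of its exon bases with another protein-coding gene, which had 0 to 1 counts. HLA-B shares 30.7% with the pseudogene DHFRP2, which had 0 counts. How reads in these shared bases were counted was not tested. This bears on the levels of TAP2 and HLA-B and on their ratios to other genes, TAP1 to TAP2 among them.

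The nonclassical heavy chains HLA-F and HLA-G, outside the 9 genes, rose as well. Both were called higher in resistant 786-O than in 786-O, in resistant A498 than in 786-O and in resistant A498 than in A498. HLA-F went from 10 ± 0.21 CPM in 786-O to 160 ± 9.62 CPM in resistant 786-O (3.99 on the log2 scale), and it was at 86 ± 0.56 CPM in resistant A498. HLA-G remained at or under 1.66 CPM in the group means. Of the class I-like partners of B2M, MR1 presents vitamin B metabolites. Its log2 fold changes over 786-O were 0.59 in resistant 786-O and 0.65 in resistant A498. MR1 was at 12.5, 20.8 and 11.7 CPM in the resistant 786-O libraries, of which the highest was replicate 2. MR1 was highest in A498 (56.5 ± 1.65 CPM), where resistant A498 stood at -1.86 against it. HFE, a partner of the transferrin receptor, was not called over 786-O (-0.03 and -0.20), and neither was FCGRT, the neonatal Fc receptor, which was under 0.5 CPM. In resistant A498 over A498, HFE was lower (-0.64), and FCGRT, with 0 to 1 counts in A498, was called higher (4.46). CD1D did not pass the filter. Among 8 ligands of the NKG2D receptor, 5 were higher and 1 lower in resistant 786-O, and the same counts were found for resistant A498 over 786-O. Of all genes, 35.0% and 31.6% were called higher and 33.5% and 32.1% lower. MICB was at 10.5 ± 0.33 CPM in 786-O, 23.9 ± 0.88 in resistant 786-O and 22 ± 0.25 in resistant A498, while RAET1G and RAET1L had means under 0.5 CPM in every group. MICB was highest in A498 (34.6 ± 1.02 CPM), and resistant A498 stood at -0.65 against it, where 3 of the 8 ligands were higher and 1 lower. In that comparison, 36.3% of all genes were called higher and 36.4% lower.

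General factors of peptide loading and trimming had smaller median changes than the 9 members. Of 12 such genes, 5 were higher and 4 lower in resistant 786-O (median log2 fold change 0.04), 9 higher and 2 lower in resistant A498 over 786-O (0.15), and 7 higher and 3 lower in resistant A498 over A498 (0.38). Of all genes, 35.0%, 31.6% and 36.3% were called higher and 33.5%, 32.1% and 36.4% lower. Among these loading and trimming genes, the largest called changes were those of TAPBPL, a tapasin relative, at 0.44 and THOP1, a cytosolic peptidase, at -0.36 in resistant 786-O. In resistant A498 over 786-O they were those of LNPEP, an aminopeptidase of endosomes, at 0.37 and THOP1 at -0.38. Over A498, resistant A498 had the opposite sign for THOP1 (0.36) and was at -0.30 for TAPBPL and 0.39 for LNPEP. Of the immunoproteasome companions, PSME1 and PSME2, which form the PA28 activator, rose by 0.34 and 0.24 in resistant 786-O and by 0.34 and 0.16 in resistant A498 over 786-O, and the assembly factor POMP was lower (-0.33 and -0.29). In resistant A498 over A498, PSME1 was at 0.27, whereas PSME2 (-0.50), POMP (-0.39) and PSMB10 (-0.67) were lower. Among the 11 other subunits of the 20S core, 8 were lower in resistant 786-O and 7 in resistant A498 over 786-O, with no higher call in either (medians -0.32 and -0.37), where 33.5% and 32.1% of all genes were called lower. In resistant A498 over A498, 4 were higher and 5 lower (median -0.12), where 36.4% of all genes were called lower. Over 786-O, examples are PSMB2 (-0.54 and -0.66, but 0.14 over A498), PSMA3 (-0.60 and -0.44), PSMA1 (-0.75 and -0.37) and PSMA6 (-0.25 and -0.79).

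Of 13 transcription factors that act on class I promoters, 5 were higher and 6 lower in resistant 786-O, and 4 higher and 5 lower in resistant A498 over 786-O. Of all genes, 35.0% and 31.6% were called higher and 33.5% and 32.1% lower, so these counts are near the shares over all genes. NLRC5 was the only one of these factors beyond 2-fold in either comparison. Its counts were 622, 740 and 837 in 786-O and 3358, 2782 and 3173 in resistant 786-O, with levels of 18 ± 1.47 and 67.2 ± 3.08 CPM and a log2 fold change of 1.90 ± 0.07 (SE, edgeR, adjusted p = 5.7e-12). In resistant A498 NLRC5 was at 66.8 ± 3.35 CPM, which is 1.89 over 786-O and 0.75 over A498 (39.8 ± 2.07 CPM). RFX5, a subunit of the X-box complex, rose by 0.60 and 0.66 over 786-O, and IRF1, an interferon-induced activator, by 0.30 and 0.53. NFYA, of the CCAAT-binding complex, was lower (-0.81 and -0.47). In resistant A498 over A498, RFX5 (0.04) and NFYA (0.17) were not called, and IRF1 was at 0.35. There, 5 of the 13 factors were higher and 3 lower, where 36.3% of all genes were called higher and 36.4% lower. In the interferon pathway, 6 of 13 genes were higher and 4 lower in resistant 786-O, with the same counts in resistant A498 over 786-O. In resistant A498 over A498, 3 were higher and 5 lower (median log2 fold change -0.05). The shares over all genes are those given for the transcription factors. STAT2, which carries the signal of type I interferons, was at 32.8 ± 0.18 CPM in 786-O, 116 ± 23 in resistant 786-O, 57.6 ± 0.98 in A498 and 165 ± 6.86 in resistant A498. IRF9 had means of no more than 1.53 CPM. All 20 interferon-stimulated genes of the list were higher in resistant 786-O (median log2 fold change 3.05) and in resistant A498 (2.95) than in 786-O, and 16 of 20 were higher and 3 lower in resistant A498 than in A498 (1.00). Of all genes, 35.0%, 31.6% and 36.3% were called higher in these comparisons. MX2 and OAS2, both antiviral effectors, led the list over 786-O with 5.77 and 5.92 in resistant 786-O and 6.81 and 6.95 in resistant A498. The part of the interferon-stimulated genes in the changes of the class I members was not tested. MHC class II remained low: of 13 genes, CD74 and CTSS were the only ones with a mean above 10 CPM in any group. These genes were named after their values were seen. In resistant 786-O, CTSS was higher (1.36) and CD74 lower (-0.78). Of the 10 tested, 7 were higher and 1 lower in resistant 786-O. For resistant A498 the counts were 7 and 0 over 786-O, and 5 and 3 over A498. The shares over all genes are again those given for the transcription factors. HLA-DRB1 had 0, 0 and 1 counts in 786-O, 53 to 70 in resistant 786-O, 12 to 35 in A498 and 45 to 65 in resistant A498. HLA-DQB1 had 0 in each 786-O library, 24 to 47 in resistant 786-O, 0 to 3 in A498 and 14 to 23 in resistant A498.

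**Figure D4:**
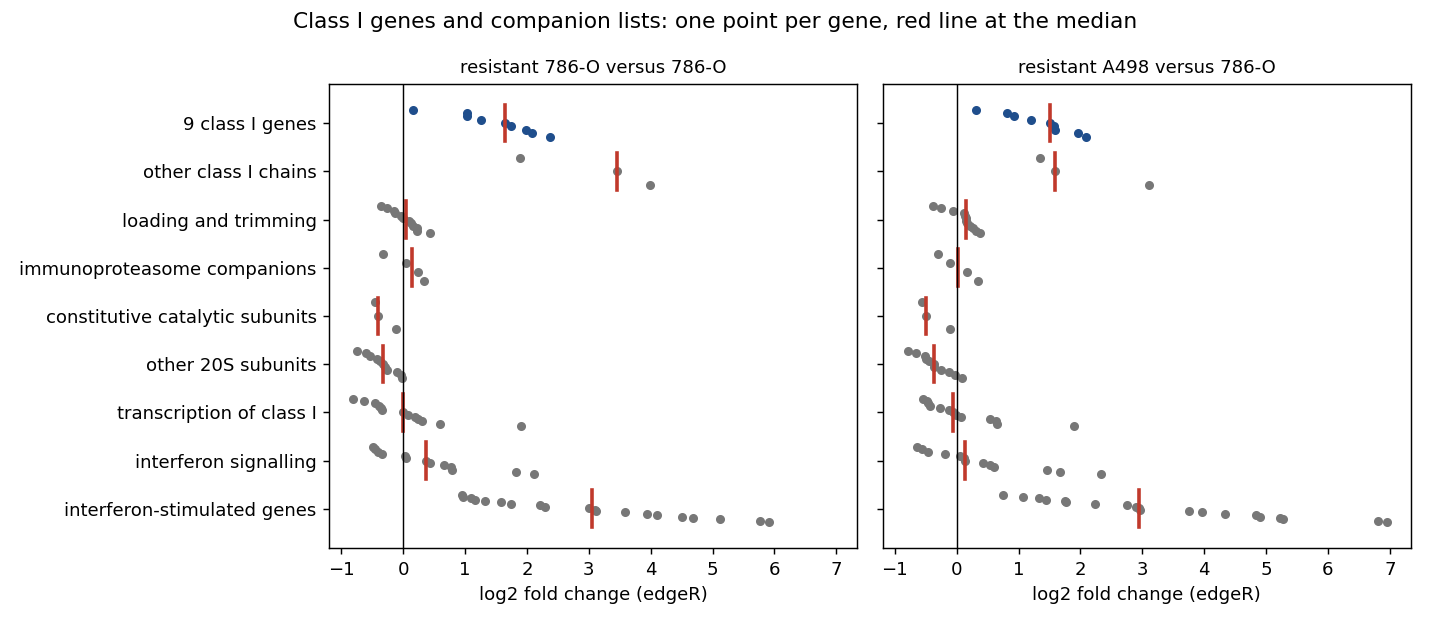
Log2 fold change (horizontal axes, edgeR) of every tested gene of the 9 class I genes and of 8 companion lists, for resistant 786-O versus 786-O and resistant A498 versus 786-O, which share their control libraries; red lines mark list medians. The class I genes have medians of 1.65 and 1.50, between the interferon-stimulated genes (3.05 and 2.95) and the constitutive catalytic subunits (-0.40 and -0.49).

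Across the 12 libraries, the mean profile of the 9 members, as log2 CPM centred on each gene's mean, was -0.82 in 786-O, -0.34 in A498, 0.50 in resistant A498 and 0.65 in resistant 786-O. The members departed from this mean by a root-mean-square difference of 0.225 (HLA-E) to 0.488 (TAP2), against a median of 0.713 over the 10067 genes considered, which had a mean of at least 10 CPM. Since the profile is the mean of these same 9 genes, their closeness to it is in part fixed by construction. The 5 other genes nearest to the profile were SEMA3F, which encodes a secreted semaphorin (0.115), CPQ, a carboxypeptidase (0.119), the noncoding RNA LACTB2-AS1 (0.12), MCOLN1, a cation channel of the lysosome (0.124), and ZFP41 (0.13). SEMA3F, for example, was at 18 ± 0.47 CPM in 786-O, 50.5 ± 3.05 in resistant 786-O, 23 ± 0.91 in A498 and 50.7 ± 3.92 in resistant A498. None of the 5 is in a list used here.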

How the data were processed

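PolyA RNA sequencing libraries of parental and sunitinib-resistant cells of both lines, 3 per group, were re-analysed. The authors deposited raw gene counts without normalization. They had trimmed the reads with Trimmomatic 0.36.6, aligned them to GRCh38 with HISAT2 2.1.0 and counted exons with featureCounts 1.6.3 (strand setting 1, mapping quality of at least 12, GENCODE 33). A mapping quality minimum drops reads that align equally well to several genes, which bears on the HLA chains. Whether the replicates are separate cultures is not stated, so p-values measure the spread between libraries only.

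Gene IDs were matched without their version (45283 of 45478 have a symbol), and positions and transcripts are from GENCODE 44. Genes were filtered with filterByExpr (19929 left), TMM-normalized and fitted in 1 quasi-likelihood model of 12 libraries and 4 group means with edgeR 4.0.16 in R 4.3.3 (DESeq2 1.42.0 as an alternative, limma 3.58.1 loaded), with p-values adjusted by Benjamini-Hochberg over all genes tested and log2 fold changes at a prior count of 0.125. The study names an unadjusted test of gene counts with unequal variances, which was run as an alternative. The other alternatives were another normalization, another filter, prior count or set of groups, equal depth by thinning, removal of the GC and length trend, the replicate block, and leaving out each library. The code was first tested on simulated data. Levels per kilobase use the Ensembl canonical transcript. Sequence identity was computed with Biopython 1.88 on the longest open reading frames. Figures were drawn with matplotlib 3.10.9. The members, companion lists and comparisons were chosen with earlier results of these data known. All members were named; of the companion lists, NLRC5, IRF1, every gene of lists of at most 4, and the 2 largest called changes in resistant 786-O and in resistant A498 over 786-O of the others, apart from items that are not reported here. Of the marker lists, values are given for lists only, apart from those of the labelled cell type and PTPRC, which were named after their values were seen.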

Additional observations from a re-analysis of the deposited data

Results flagged for a closer look

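The log2 fold changes of the resistant over the parental libraries were unequal between the labelled lines for 8 of the 9 members, by edgeR's test of that difference (adjusted p under 0.05), as it did for 68.3% of all genes tested. Values are the log2 fold change in resistant A498 over A498 minus that in resistant 786-O over 786-O. The value was below 0 for HLA-C (-1.83), HLA-B (-1.47), PSMB9 (-1.44), PSMB8 (-0.74), TAP1 (-0.60) and B2M (-0.35). It was above 0 for TAP2 (0.39) and TAPBP (0.24). Once trends with GC content and length were taken out, TAP1 was at 0.05 and not called, HLA-C moved to -0.78, PSMB8 to -0.22, B2M to -0.61 and TAPBP to 0.89. TAPBP was at 0.16 with at least 10 counts in every library. As the identity of the resistant A498 libraries is in doubt, a change with resistance and a difference between the lines cannot be told apart in any of these values. With 3 libraries per group, no single library was tested against the rest of its group.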

How the results depend on the processing

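All 9 members were called higher in resistant 786-O over 786-O, resistant A498 over 786-O and resistant A498 over A498 under each alternative that kept the threshold on the adjusted p alone, except that TAP2 was lost over 786-O with the GC content and gene length trend removed and, in resistant 786-O, without the filter on low counts, and PSMB9 was lost over A498 without replicate 1 of A498. Requiring an absolute log2 fold change over 1 left 4 members in resistant A498 over A498, 3 in 786-O over A498, 3 in the difference between the changes and 0 in resistant A498 over resistant 786-O. The unadjusted test of unequal variances on raw counts called 5 in resistant A498 over A498, 3 in 786-O over A498 (3 higher and 0 lower, against 2 and 6), 7 in resistant A498 over 786-O (6 higher and 1 lower) and 9 in resistant A498 over resistant 786-O (0 higher and 9 lower), and raw counts carry the unequal depth of the libraries. On CPM the same test gave 9 higher in each comparison of a resistant with a parental group. Removal of the GC and length trend left 3 in resistant A498 over resistant 786-O. Leaving out 1 library at a time gave 7 to 9 members in 786-O over A498, 5 to 6 in resistant A498 over resistant 786-O, 8 to 9 in resistant A498 over A498 and 8 to 9 in the difference.
With that trend removed, without and with the replicate block, the sign turned for TAP2 in resistant 786-O over 786-O (-0.076 and -0.077), TAP1 in 786-O over A498 (0.265 and 0.265), TAP1 in the difference (0.054 and 0.057), and HLA-E (0.14 and 0.143) and PSMB8 (0.035 and 0.037) in resistant A498 over resistant 786-O. HLA-E also turned in the difference with library size alone (-0.013) and with at least 10 counts in every library (-0.02), and in resistant A498 over resistant 786-O without resistant 786-O replicate 2 (0.048, with a range of -0.113 to 0.048 over all left-out libraries). Without that replicate the difference for HLA-E was 0.17 and called (adjusted p = 0.0028, edgeR). With the trend removed it was 0.688 and called as well. The cause of these turns was not tested.
Scaling by library size alone moved the median of all genes by 0.14 in resistant 786-O and 0.15 in resistant A498 over 786-O, and put TAP2 in resistant 786-O at 0.30 and in 786-O over A498 at 0.16. The replicate numbers did not pair the libraries, with correlations of deviations from the group means between -0.238 and 0.122 for same-numbered libraries. The replicate block alone left 9, 9, 9, 8, 6 and 8 members called in the 6 comparisons, as without it. Together with the trend removed it gave a call for HLA-E between the resistant groups (0.143). The lowest count of a member in any library was 738.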
